A study of Rattus norvegicus with 4 samples.

Results

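Granulosa cells surround the oocyte in the ovarian follicle and make steroid hormones in response to follicle-stimulating hormone (FSH). Described here are 41 genes whose transcripts were low on the array of cells that carried FOXOA3-mDBD and were present on the other 3 arrays of the study. They were chosen by their signals from 14217 genes with 1 symbol on a rat expression array. A gene was taken if its signal on the FOXOA3-mDBD FSH array was at least 4-fold below its signal on each of the other 3 arrays. Signals under a floor of 100.5 were first raised to it, and each gene was read by its brightest probe set. The limit was passed by 50 genes, or 0.352% of all genes, and by 0.882% of the 5666 eligible genes whose signal was at least 402 on each of the other arrays. From these 50, 9 were left out by their symbols: Ccn3, Cebpb, Col11a1, Col8a1, Gata4, Igfbp5, Mmp11, Nr5a1 and Slc25a39. Because the values of all 4 arrays chose the genes, their low signal with FOXOA3-mDBD is a description and not a result.

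The cells were primary granulosa cells of female Sprague-Dawley rats aged 23 to 25 days that had received estradiol. All were grown without serum on serum-coated dishes, and all were infected with an adenovirus for 4 h before 24 h of culture. GFP vehicle received a virus for green fluorescent protein and no FSH, and GFP FSH received the same virus and FSH at 100 ng/ml. FOXOA3 FSH received constitutively active FOXO1 and the same FSH. FOXOA3-mDBD FSH received that protein with a mutated DNA-binding domain, and the same FSH. The sources used here do not give the promoter that drove the transgenes, the amount of virus or the number of cultures behind an array, and the cells kept their own Foxo1 gene. There was 1 array per group, so no difference below has a replicate check and no test was made.

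FOXO1 is a forkhead transcription factor of granulosa cells. FSH activates the kinase AKT, which phosphorylates FOXO1 and moves it out of the nucleus, and FOXOA3 lacks the phosphorylation sites and stays nuclear. FOXO1 can act by binding DNA or through partner proteins, which is the question that a DNA-binding mutant addresses.

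Promoter sequences of 30 of the 41 genes were found in a table of RefSeq gene starts on the rat build GRCr8, and 6 are shown as the 250 bases before the start. The first 4 are those of the genes whose promoter held a FOXO, GATA or cyclic AMP response element motif, although the annotation of the Hba-a3 probe set is uncertain, and the last 2 belong to neighbours on the X chromosome. All are written 5′ to 3′ on the strand of the gene. Capitals mark the FOXO core GTAAACA, the GATA site AGATAA, the cyclic AMP response element TGACGTCA or the CCAAT box, in either orientation.
Hba-a3: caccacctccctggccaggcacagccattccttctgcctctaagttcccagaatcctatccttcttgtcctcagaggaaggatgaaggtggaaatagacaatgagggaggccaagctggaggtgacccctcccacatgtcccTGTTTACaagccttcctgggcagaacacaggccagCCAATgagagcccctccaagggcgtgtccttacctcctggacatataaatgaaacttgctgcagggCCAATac
Pak1: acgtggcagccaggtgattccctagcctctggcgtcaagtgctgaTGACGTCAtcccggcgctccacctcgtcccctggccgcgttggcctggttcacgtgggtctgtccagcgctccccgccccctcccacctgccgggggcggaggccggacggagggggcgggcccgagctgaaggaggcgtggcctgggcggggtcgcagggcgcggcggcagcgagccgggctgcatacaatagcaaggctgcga
Akr1c3: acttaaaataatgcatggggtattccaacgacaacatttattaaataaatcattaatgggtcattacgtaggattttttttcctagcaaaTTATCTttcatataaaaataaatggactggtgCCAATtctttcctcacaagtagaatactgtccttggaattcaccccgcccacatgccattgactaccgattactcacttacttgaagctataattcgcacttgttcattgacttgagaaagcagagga
Fgfrl1: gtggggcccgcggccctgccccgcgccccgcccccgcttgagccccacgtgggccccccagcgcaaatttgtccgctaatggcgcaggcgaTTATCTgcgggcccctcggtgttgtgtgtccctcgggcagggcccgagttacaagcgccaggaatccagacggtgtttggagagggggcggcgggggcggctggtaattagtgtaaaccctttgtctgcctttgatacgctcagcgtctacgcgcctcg
Tmsb15b2: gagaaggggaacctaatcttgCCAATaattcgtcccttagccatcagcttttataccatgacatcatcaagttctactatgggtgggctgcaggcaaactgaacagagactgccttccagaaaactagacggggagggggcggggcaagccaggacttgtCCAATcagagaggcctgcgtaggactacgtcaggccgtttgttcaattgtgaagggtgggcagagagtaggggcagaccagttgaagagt
Zcchc18: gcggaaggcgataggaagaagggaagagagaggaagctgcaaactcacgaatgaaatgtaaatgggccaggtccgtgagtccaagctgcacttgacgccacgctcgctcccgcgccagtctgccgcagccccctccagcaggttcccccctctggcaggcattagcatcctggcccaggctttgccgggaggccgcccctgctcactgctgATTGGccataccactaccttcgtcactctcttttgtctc

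These stretches lie at chr10:15816944-15817193 on the minus strand for Hba-a3, chr1:161522200-161522449 on the plus strand for Pak1, chr17:71020634-71020883 on the plus strand for Akr1c3 and chr14:1166335-1166584 on the minus strand for Fgfrl1. The stretch of Tmsb15b2 is chrX:105093095-105093344 on the minus strand and that of Zcchc18 chrX:105111644-105111893 on the plus strand, so that the pair is transcribed in opposite directions from a shared interval with 0 annotated genes between them. Motifs were searched on both strands from 250 bases before to 50 bases after the start. The FOXO core was in 1 of 30 promoters (3.33%), that of Hba-a3, against 2.17% of 4844 eligible genes and 3.76% of all 27457 promoters of this length. The NR5A site AAGGTCA was in 0 of 30, against 2.33% and 4.37%. AGATAA was in 2 of 30 (6.67%), those of Akr1c3 and Fgfrl1, against 5.41% and 11.3%, and TGACGTCA was in 1 of 30, that of Pak1, against 3.59% and 1.91%. CCAAT was in 12 of 30 (40.0%), against 38.6% and 37.7%. GGGCGG, the GC box bound by SP1, was in 25 of 30 (83.3%), against 67.2% of eligible genes and 34.9% of all promoters. The median GC content of the promoters was 63.8%, against 61.8% for eligible genes and 52.3% for all. A match of letters in this window is not a binding site, and a missing one says nothing of the factor.

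On the 4 arrays the floor was the median of the pooled signals of the rat probe sets, and between 47.9% and 52.8% of rat probe sets lay above it. Where 4 values are given together, the order is GFP without FSH, GFP with FSH, FOXOA3 and lastly the mutant. Foxo1 itself had signals of 8149, 2862, 3834.5 and 961, and the sources used here do not say whether its probe set reads the transgenes, so it does not check the vectors. Granulosa identity was checked with 23 markers on the array, of which between 19 and 22 lay above the floor on each array, and 20 on FOXOA3-mDBD FSH. Their summed signals were 70908, 153240, 74907 and 57074, lowest on FOXOA3-mDBD FSH, which was the lowest array for 13 of the 22 measured markers. Leukocyte markers had 2 to 5 of 13 above the floor, with Ptprc and Cd68 below it on every array, and their summed signal was between 1771 and 4579. Cd14, with 2167, 727, 2577 and 1012, and Lyz2 lay above it on every array. Endothelial markers had 2 to 4 of 11 above it, with Pecam1 and Vwf below it and Kdr above it throughout. Oocyte markers had 2 or 3 of 7, with Zp2 and Gdf9 above it on every array. Of the 18 theca, stroma and smooth muscle markers, 12, 8, 12 and 7 lay above the floor, with summed signals of 46421, 29604, 46949 and 23413. Cyp17a1 and Insl3 were below the floor on every array, while Acta2, Tagln, Dcn, Ogn, Fn1 and Vim were above it on every array. The granulosa sum and the theca and stroma sum were thus both lowest on FOXOA3-mDBD FSH. The part of the makeup of the cells in the results was not tested, and fewer cells of a type cannot be told apart from less RNA per cell. Poly-A spikes were bright on GFP FSH and FOXOA3-mDBD FSH and dim on the other arrays. The 3′ to 5′ ratio of beta-actin was 5.15, 12.0, 9.79 and 10.7 and that of GAPDH 2.32, 2.46, 2.84 and 3.15, so that FOXOA3-mDBD FSH was highest for GAPDH and second to GFP FSH for beta-actin. The part of RNA quality in the results was not tested.

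The 41 genes had median signals of 1721, 1014, 1178 and 186. Their signal on FOXOA3-mDBD FSH was between 4.01-fold and 7.64-fold below the lowest of the other arrays, with a median of 4.87-fold, 17 of 41 were at least 5-fold below it and 8 at least 6-fold. For Gaa, Sema3b, Gmppa and Tmem184b the signal lay under the floor, so that their folds are lower bounds. Just inside the limit were Fkbp11 at 4.12-fold, Ttyh3 at 4.04-fold and Tmem150a at 4.01-fold, and just outside it Dbn1 at 3.95-fold, Hyou1 at 3.95-fold and Mxra7 at 3.94-fold. The edge of the group is therefore not marked by a gap. Low signals on this array were common. Of the eligible genes, 22.1% were at least 2-fold lower on it than on GFP vehicle and 11% at least 2-fold higher. Against GFP FSH these shares were 21.3% and 9.32%, and against FOXOA3 FSH 17.9% and 7.75%. The median eligible gene was lower on it by 0.17, 0.23 and 0.16 on the log2 scale than on these arrays. The log2 medians of the 41 genes were -2.90, -2.44 and -2.56, as their choice requires. With another array in the place of FOXOA3-mDBD FSH, the same limit took 20 genes low on GFP vehicle alone (0.141%), 28 on GFP FSH alone (0.197%) and 0 on FOXOA3 FSH alone. These counts are over all symbols and stand beside the 50 genes, and with the same symbols left out they were 19, 26 and 0 beside the 41. In the other direction 173 genes (1.22%) were at least 4-fold higher on FOXOA3-mDBD FSH than on each other array, against 23 on GFP vehicle (0.162%), 28 on GFP FSH (0.197%) and 31 on FOXOA3 FSH (0.218%). The number of genes taken moved with the settings, from 41 to 130 under a floor at the 25th percentile, 22 under a doubled floor and 26 after loess normalization.

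**Figure D1:**
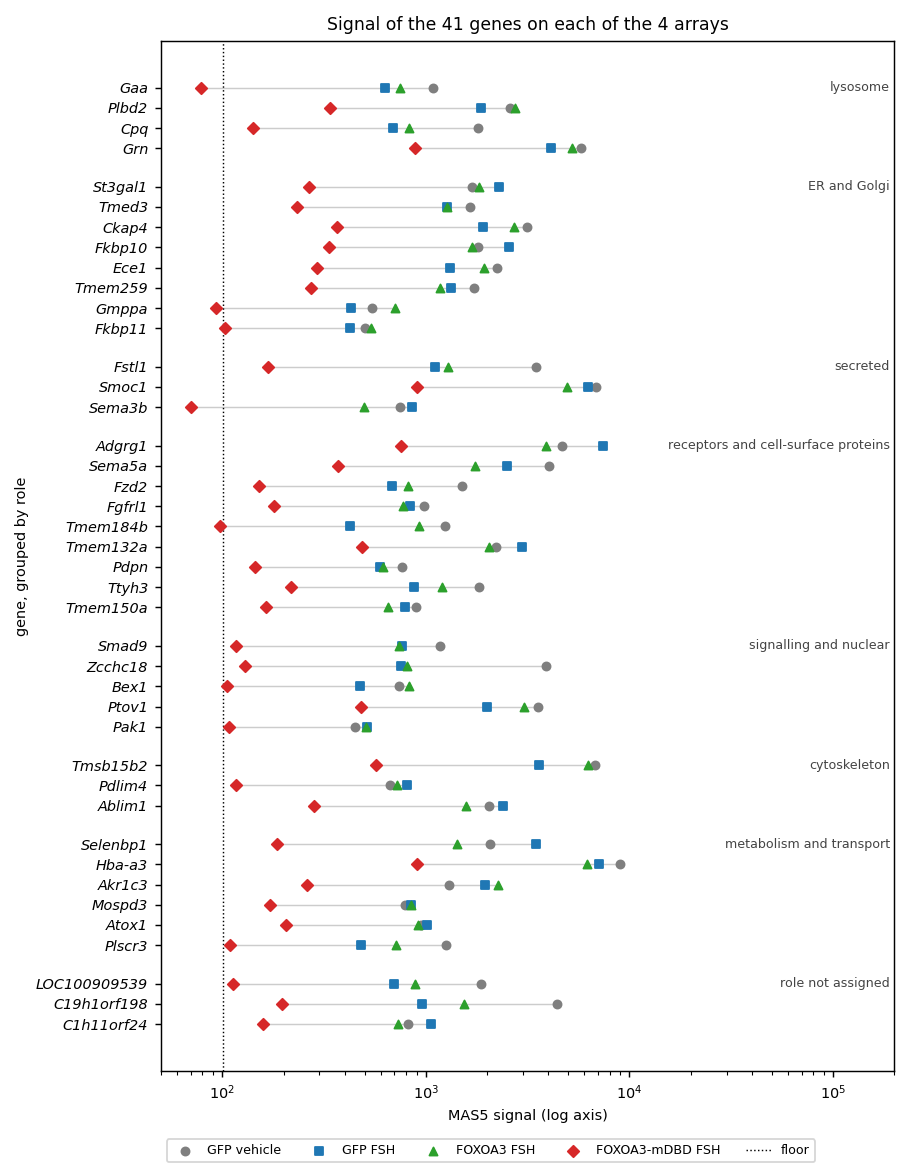
MAS5 signals of the 41 genes on a log axis, 1 symbol per array and gene, grouped by role and ordered by the fold to the lowest other array; the dotted line is the floor of 100.5. The FOXOA3-mDBD FSH signals sit between 70.6 and 909 and lie left of the other 3 arrays in every row, as the choice of the genes requires, while the order of the other 3 arrays differs from gene to gene.

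**Figure D2:**
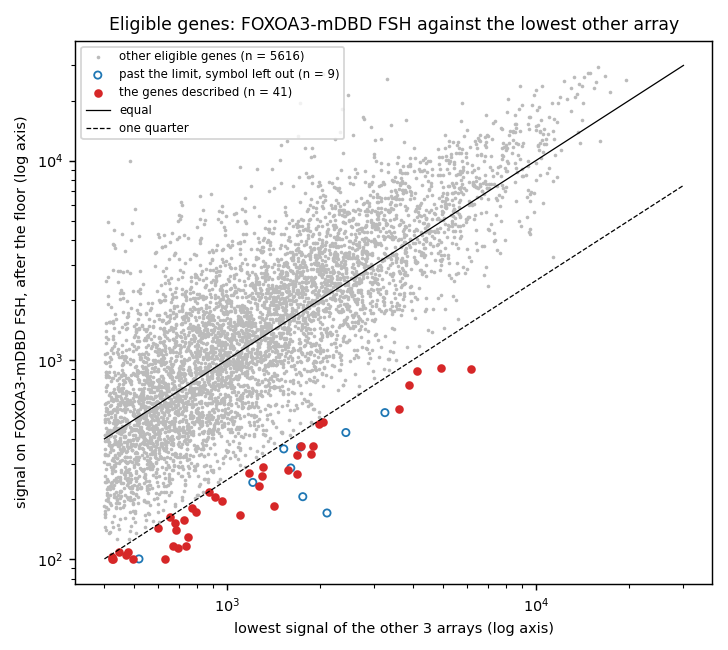
Each point is 1 of the 5666 eligible genes, with the lowest signal of the other 3 arrays on the x axis and the FOXOA3-mDBD FSH signal after the floor on the y axis, both on log axes. The 41 genes lie below the dashed line that marks the 4-fold limit, with 9 genes left out by symbol as open circles, and the other genes continue up to that line without a gap.

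The roles below come from textbook knowledge and were assigned after the genes were known. Of the 41 genes, 24 were placed in the lysosome, the endoplasmic reticulum (ER) or Golgi, the secreted proteins or the cell surface. The share of such proteins among all eligible genes was not computed here, so this count says nothing of enrichment.

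Lysosomal proteins were 4 of the 41. Gaa, the acid alpha-glucosidase that breaks down glycogen in lysosomes, had signals of 1089.8, 629.6, 746 and 78.8. Plbd2, a phospholipase B-like protein of the lysosome, was at 2579, 1876, 2731 and 339, and was brightest on FOXOA3 FSH. Progranulin (Grn), a secreted growth factor that also reaches lysosomes, had 5764, 4115, 5209.7 and 882. Cpq, a carboxypeptidase, was highest on GFP vehicle, with 1796, 687, 825 and 141. On the other 3 arrays Grn and Plbd2 stayed within 1.5-fold, and Cpq was 2.62-fold lower on GFP FSH than on GFP vehicle.

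The ER and Golgi group had 8 genes, with signals between 93.7 and 368 on FOXOA3-mDBD FSH and between 425 and 3140 elsewhere. St3gal1, a Golgi sialyltransferase, had signals of 1688, 2278, 1834 and 267 and was 6.33-fold below the lowest other array. Ckap4, which shapes the sheets of the rough ER, was at 3140.2, 1901, 2721 and 368, and the p24 cargo receptor Tmed3 at 1646, 1267, 1277 and 233. The prolyl isomerase Fkbp10, a folding factor for collagen in the ER, had 1809.7, 2556, 1692 and 334. Its relative Fkbp11 had 504, 425, 538 and 103. Of this pair Fkbp10 was higher on GFP FSH than on GFP vehicle and Fkbp11 lower. Gmppa, which regulates the supply of GDP-mannose for glycosylation, had 542, 429, 705 and 93.7. Ece1, the protease that activates endothelin, was 4.49-fold below the lowest other array and Tmem259, a protein of ER-associated degradation, 4.32-fold.

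Secreted proteins numbered 3. Fstl1, a follistatin-like glycoprotein that binds BMP-family ligands, had signals of 3482, 1105, 1279 and 168, and its level on GFP vehicle was 3.15-fold above that on GFP FSH. Smoc1, a calcium-binding matrix protein and antagonist of BMP signalling, had 6830.1, 6261, 4922 and 909. Sema3b, a secreted semaphorin, had 750.3, 852, 499 and 70.6, with FOXOA3-mDBD FSH under the floor. Fstl1 was thus lower on both GFP FSH and FOXOA3 FSH than on GFP vehicle, while Smoc1 differed by at most 1.39-fold among these 3 arrays by its brightest probe set. A second Smoc1 probe set had 1681, 922 and 957 on them, a wider spread.

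At the cell surface were 9 genes. Adgrg1, an adhesion G protein-coupled receptor, was highest on GFP FSH, with 4654, 7395, 3885 and 751. Sema5a, a transmembrane semaphorin, was highest on GFP vehicle, with 4034, 2493, 1743 and 369.6. The Wnt receptor Fzd2 had 1503, 678, 814 and 152, and the podoplanin gene Pdpn 759.5, 597, 615 and 144. Fgfrl1, a fibroblast growth factor receptor without a kinase domain, differed by 1.27-fold among the other 3 arrays and was 4.28-fold lower than the lowest of them. Tmem184b had 1239, 426, 922 and 97.8, so that GFP FSH was the lowest of the other 3 arrays. Ttyh3, a chloride channel of the tweety family, was at 1829.6, 877, 1196 and 217, and Tmem150a at 897, 788, 654 and 163. Tmem132a was 4.20-fold below the lowest other array.

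Among signalling and nuclear proteins, 5 genes were counted. Smad9, a receptor-regulated SMAD of the BMP pathway, had signals of 1179, 759, 735 and 117. The other SMAD genes differed less or in the other direction. Smad3 was 1.59-fold below the lowest other array and Smad2 1.04-fold. Smad1, another receptor-regulated member of the same pathway, had 2617, 944, 2547 and 2656, Smad5 had 1665, 1443, 1714 and 1971 and the common partner Smad4 3594, 3877, 3971 and 4738, each with FOXOA3-mDBD FSH as the highest array. The inhibitory Smad7 was 2.06-fold above the highest other array, and the 8 SMAD genes split into 4 lowest and 4 highest on FOXOA3-mDBD FSH. The SMAD list was added once the 41 genes were known. Pak1, a kinase under Rac and Cdc42, was nearly level on the other arrays, with 448, 515, 506 and 109. Zcchc18, a zinc finger protein, had 3903, 751, 812 and 129, and Ptov1 had 3566, 1989.5, 3036 and 478. Bex1, a small adaptor of neurotrophin signalling, was at 738, 472, 831 and 105.

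The cytoskeletal genes were 3. Tmsb15b2, a thymosin that binds actin monomers, had 6764, 3607, 6290.1 and 569. Pdlim4, a PDZ and LIM domain protein of actin fibres, was at 668, 804, 725 and 117, and the actin-binding Ablim1 at 2032, 2383, 1576 and 282. Tmsb15b2 belongs to a family of closely similar thymosins, which its probe set may not separate. Tmsb15b2 and Zcchc18 are the neighbours whose promoters are shown above. Zcchc18 was 5.20-fold lower on GFP FSH than on GFP vehicle and Tmsb15b2 1.88-fold, but on FOXOA3 FSH Zcchc18 was low and Tmsb15b2 was close to GFP vehicle. Sema5a and LOC100909539 are also neighbours, on chromosome 2, with 0.155 kb between them. LOC100909539 had 1860.2, 696, 882 and 113. It shared its highest array, GFP vehicle, with the brightest Sema5a probe set but not its lowest among the other 3. By a second Sema5a probe set, with 2055, 309 and 1295 on these arrays, GFP FSH was the lowest, as for LOC100909539. Loci this close are not separate evidence.

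Metabolism and transport held 6 genes. The methanethiol oxidase Selenbp1, a selenium-binding protein, had the largest fold of the 41 genes at this floor, where that of Gaa is only a lower bound. With the floor at the 25th percentile the log2 ratio to the lowest other array was -3.00 for Gaa and -2.93 for Selenbp1. Selenbp1 had signals of 2064, 3478, 1422 and 186, highest on GFP FSH and 7.64-fold lower on FOXOA3-mDBD FSH than on FOXOA3 FSH, its next lowest array. Akr1c3, an aldo-keto reductase of a family with close paralogs that its probe set may not separate, was at 1304, 1945, 2263 and 262. The copper chaperone Atox1 was 4.46-fold below the lowest other array, Mospd3 4.61-fold and the scramblase Plscr3 4.40-fold. Mospd3 differed least among the other 3 arrays, by 1.06-fold. The probe set annotated to Hba-a3, an alpha globin, had 8984, 7108, 6187 and 904. The beta globin Hbb ran the other way with 387, 542, 1453 and 2719, and the erythroid heme enzyme Alas2 was near the floor at 121, 99, 54.1 and 124. These other erythroid genes did not share its pattern, and whether the probe set reads Hba-a3 transcripts was not tested. The remaining genes have no role assigned here. C19h1orf198 had 4386, 962, 1535 and 197 and C1h11orf24 815, 1061, 728 and 158.

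On the arrays other than FOXOA3-mDBD FSH, most of the 41 genes had similar signals. The highest and lowest of these 3 signals were within 2-fold for 30 genes (73.2%), against 80.9% of eligible genes, and the median spread was 1.65-fold against 1.5-fold. GFP vehicle was the highest of the 3 for 24 genes, GFP FSH for 11 and FOXOA3 FSH for 6. The same split was not computed for the eligible genes, so these counts say nothing particular to the 41. The choice of the genes set only a lower limit on these arrays, and their order was not read. That limit was applied to the lowest of the 3 relative to FOXOA3-mDBD FSH. It can therefore still tilt the ratios and counts of the comparisons that follow, and the eligible genes do not carry it.

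With FSH under GFP, 9 of the 41 genes (22.0%) were at least 2-fold lower than with vehicle and 0 were 2-fold higher, against 6.78% and 5.52% of eligible genes. The genes that were 2-fold lower were Zcchc18 at 5.20-fold, C19h1orf198 at 4.56-fold, Fstl1 at 3.15-fold, Tmem184b at 2.91-fold, LOC100909539 at 2.67-fold, Plscr3 and Cpq at 2.62-fold, Fzd2 at 2.21-fold and Ttyh3 at 2.09-fold. They fall into 5 of the role groups, with C19h1orf198 and LOC100909539 outside them. The largest ratios upward were those of Selenbp1 at 1.68-fold, Adgrg1 at 1.59-fold, Akr1c3 at 1.49-fold and Fkbp10 at 1.41-fold. The median log2 ratio of the 41 genes was -0.38, with 28 below 0 and 13 above. That of the eligible genes was 0.06, with 2586 below 0 and 3080 above. These arrays differ in the spike state and in the beta-actin 3′ to 5′ ratio, whose part in the ratios was not tested. The part of the choice of the genes in these counts was not tested either.

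With active FOXO1 that has an intact DNA-binding domain, most of these genes were near their level on GFP FSH. On FOXOA3 FSH, 39 of 41 were within 2-fold of GFP FSH, 1 was 2-fold higher and 1 lower (2.44% each), against 5.77% and 6.23% of eligible genes. Tmem184b was the higher gene, at 2.16-fold, and Selenbp1 the lower one, at 2.45-fold. Next in order upward were Bex1 at 1.76-fold, Tmsb15b2 at 1.74-fold and Gmppa at 1.65-fold, and downward Adgrg1 at 1.90-fold, Sema3b at 1.71-fold and Ablim1 at 1.51-fold. The median log2 ratio was 0.04, against -0.08 for eligible genes, and it changed sign to -0.05 after centring and -0.03 after loess. The split of 1 higher and 1 lower was 2 and 1 after quantile normalization and 1 and 2 after centring. A GFP FSH signal that is at least 4-fold above FOXOA3-mDBD FSH was required of each gene, and so was the same of FOXOA3 FSH, but the ratio between them was not. Both comparisons use the GFP FSH array.

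Against GFP vehicle, on an array of the same spike state, FOXOA3 FSH was 2-fold lower for 6 genes (14.6%) and 2-fold higher for 0, against 2.95% and 2.35% of eligible genes. These were Zcchc18 at 4.80-fold, C19h1orf198 at 2.86-fold, Fstl1 at 2.72-fold, Sema5a at 2.31-fold, Cpq at 2.18-fold and LOC100909539 at 2.11-fold. All but Sema5a were also 2-fold lower on GFP FSH than on GFP vehicle, and both comparisons share the GFP vehicle array. By its brightest probe set Sema5a was 1.62-fold lower there. A second Sema5a probe set had 2055, 309, 1295 and 14, lower on GFP FSH than on FOXOA3 FSH. The median log2 ratio was -0.34, against -0.02 for eligible genes.

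**Figure D3:**
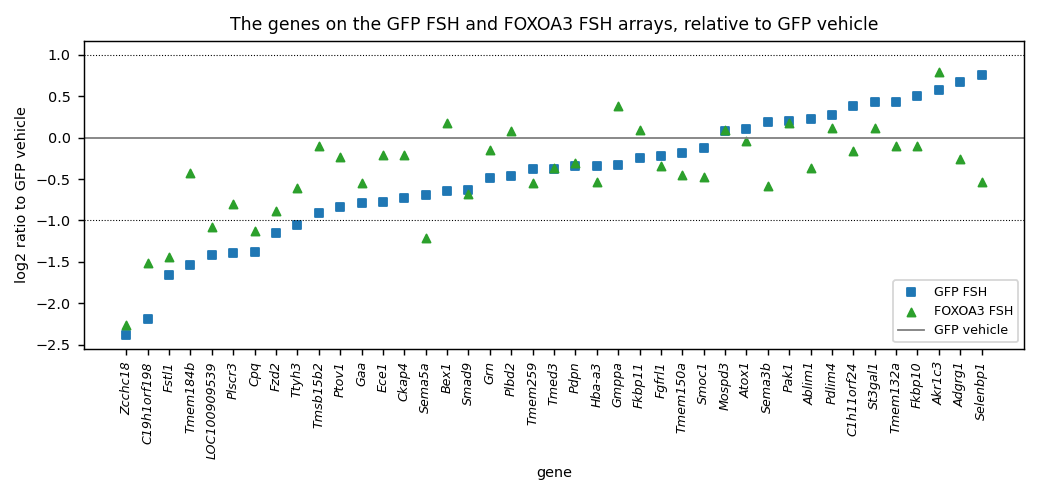
Log2 ratios of the GFP FSH and FOXOA3 FSH signals to GFP vehicle for the 41 genes, ordered by the GFP FSH ratio, with dotted lines at 2-fold. The GFP FSH points run from -2.38 for Zcchc18 to 0.75 for Selenbp1, 9 lie below the lower dotted line and 0 above the upper one, and both sets of points share the GFP vehicle array.

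Further probe sets of these genes were not read by the choice, although they were hybridised to the same 4 arrays and are no further samples. There were 20 such probe sets for 13 genes. For 11 of them, from 8 genes, all 3 other arrays lay above the floor, and FOXOA3-mDBD FSH was the lowest array in 11 of 11. This count depends on the floor, since it was 13 of 15 with the floor at the 25th percentile. The filter also set no condition on FOXOA3-mDBD FSH itself. Where FOXOA3-mDBD FSH lay under the floor, as in most of the 11, passing the filter made it the lowest array. Among second probe sets of all other genes it was the lowest in 35.6% of 2371. In 5 of the 11, FOXOA3-mDBD FSH was at least 2-fold below each other array, against 5.1%. The second probe set of Smoc1 had 1681, 922, 957 and 191, a fold of 4.82, and that of Fstl1 2415, 1067, 854 and 221, a fold of 3.87. A second Sema5a probe set was at 2055, 309, 1295 and 14, at least 3.07-fold after the floor. Plbd2 had 432, 279, 490.2 and 95.3 and Ckap4 540.1, 262, 314 and 71.3 on 1 further probe set and 859, 192, 507 and 58.6 on another. Among probe sets with FOXOA3-mDBD FSH above the floor the smallest gap was that of Tmem259, with 420.2, 261, 382 and 214, where FOXOA3-mDBD FSH was 1.22-fold below GFP FSH while the brightest probe set gave 4.32-fold. Dim probe sets cap what could be seen, since 9 of the 11 had a signal on another array too low for a 4-fold gap above the floor. The other 9 probe sets, including all those of Ablim1, Gaa, Pak1, Smad9 and Ttyh3, could not be read in this way, and in some of them, such as those of Ttyh3, another array was the lowest.

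**Figure D4:**
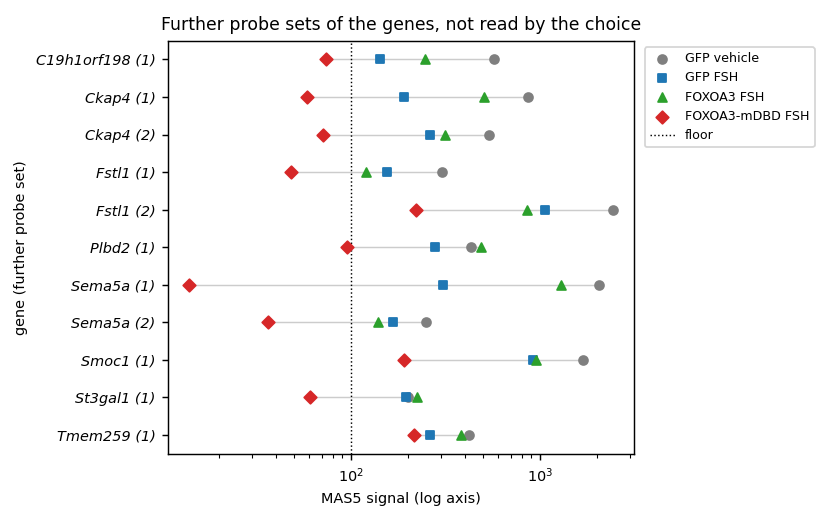
MAS5 signals on a log axis of the 11 further probe sets whose other 3 arrays lay above the floor, with the floor as a dotted line. FOXOA3-mDBD FSH is the leftmost symbol in each of the 11 rows, furthest away for a Sema5a probe set at 14 and closest for Tmem259 at 214. Where it lies left of the floor line, the filter on the other 3 arrays requires this.

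Gene lists from textbook pathways show where the other genes of these compartments stood. Over all 10407 genes measured above the floor on at least 1 array, 8.05% were at least 2-fold lower on FOXOA3-mDBD FSH than on each other array and 5.76% at least 2-fold higher. Lists of lysosomal, ER, unfolded protein response, Golgi, semaphorin and frizzled genes were added once the 41 genes were known, and most hold some of them, so that their counts support nothing. Of the 39 measured lysosomal proteins, 15 were 2-fold lower and 0 were 2-fold higher, and FOXOA3-mDBD FSH was the lowest array for 31. The count of 15 was 11 after centring. Leaving out the 4 described genes, without centring, gave 11 of 35, and 10 of the 31 that were eligible, against 9.99% of eligible genes outside the 41. The acid ceramidase Asah1 was 3.70-fold lower with 4155, 2995, 3339 and 809, the protease cathepsin D (Ctsd) 3.36-fold with 3513, 3289, 2966 and 883. The lysosomal membrane protein Lamp2 was instead 1.41-fold above the highest other array, with 6869, 7966, 8260.0 and 11668, so that members of the list differed in direction.

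Of 35 genes for protein folding in the ER, 14 were 2-fold lower and 2 higher, and without Ckap4, Fkbp10 and Fkbp11 this was 11 of 32. Of the 27 of these that were eligible, 9 were 2-fold lower, against 9.99% of eligible genes outside the described genes. The count of 14 was 9 after centring the arrays on their median. The chaperone Hyou1 had 1811, 421, 1412 and 107, the lysyl hydroxylase Plod3 3763, 3171, 2653 and 678 and selenoprotein N (Selenon) 2045, 837, 1004 and 219. In contrast the oxidase Ero1a was 2.30-fold higher than on any other array and the co-chaperone Dnajc3 2.25-fold, and the main ER chaperone Hspa5 had 10844, 21913, 8454 and 13990.0. Golgi and transport genes had 8 of 37 lower and 1 higher, or 5 of 34 without St3gal1, Tmed3 and Gmppa. Of the 30 of these that were eligible, 3 were 2-fold lower, which is no excess over the same 9.99%. Genes listed for the unfolded protein response had 1 of 17 lower, Bloc1s1 with 827, 1173, 1067 and 336, and 0 higher. The transcription factor Xbp1 was at 6425, 7964, 6762 and 3551 and the stress factor Ddit3 at 276, 145, 429.6 and 291. Of 10 semaphorins 2 were 2-fold lower, Sema3b and Sema5a themselves, and Sema6d was 2.26-fold higher. Of 6 frizzled receptors 3 were lower: Fzd2, Fzd4 with 601, 581, 262 and 85.1 and Fzd1 with 2511, 2133, 1931 and 776.

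Of the lists that were written down at the start, the antioxidant and detoxification enzymes held 1 of the 41 genes, Selenbp1. There 6 of 24 were 2-fold lower, or 4 after centring, and 1 higher. The glutathione transferase Gstm2 had 537, 1028, 345 and 44 and the retinal dehydrogenase Aldh1a1 11190.3, 6278, 4183 and 1173, while the epoxide hydrolase Ephx1 was 5.21-fold higher with 1497, 1735, 1253 and 9033. Of 22 granulosa cell markers, 7 were 2-fold lower and 2 higher. The 7 include Nr5a1 and Gata4, which passed the 4-fold limit and were left out by symbol. FOXO target genes had 0 of 24 lower and 2 higher, Sesn1 at 2.12-fold and Irs2 at 2.02-fold. Cholesterol biosynthesis had 1 of 16 lower and 0 higher, and steroidogenesis 2 of 14 and 0. Cell cycle genes had 3 of 31 lower and 1 higher, apoptosis genes 2 of 18 and 0, interferon response genes 0 of 23 and 6, and reference genes 1 of 11 and 0. A gene near the floor on another array cannot be called lower. Only 6 of the 23 interferon genes and 13 of the 24 FOXO targets were eligible, which limits what their counts of 0 can show.

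**Figure D5:**
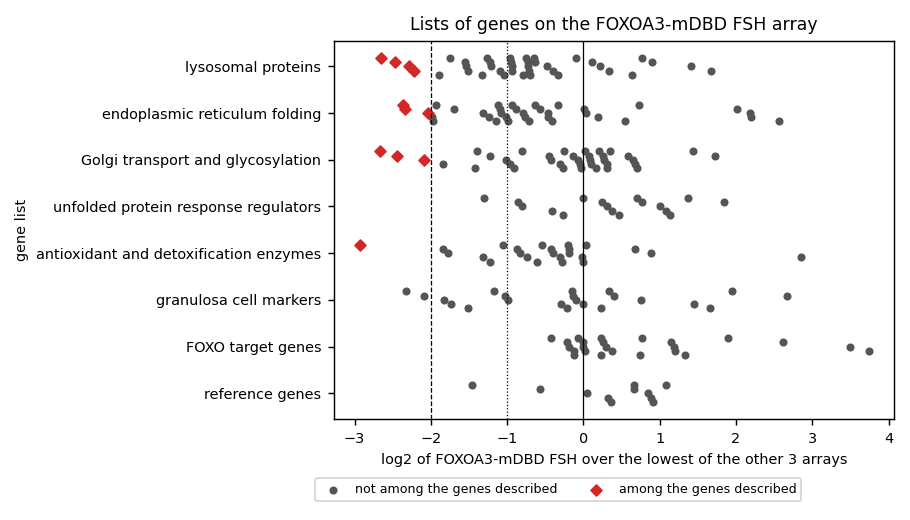
Log2 of the FOXOA3-mDBD FSH signal over the lowest of the other 3 arrays, 1 point per measured gene of 8 lists, with a dotted line at 2-fold and a dashed line at 4-fold lower. The described genes are diamonds left of the dashed line by choice. The dotted line was reached by 15 of 39 lysosomal and 14 of 35 ER folding genes, on lists added once the described genes were known. Without the described genes these counts were 11 of 35 and 11 of 32. Other counts, described genes included, were 7 of 22 granulosa markers, 6 of 24 antioxidant and 8 of 37 Golgi genes. FOXO targets had 0 of 24 and reference genes 1 of 11, and the share of all measured genes was 8.05%. Among eligible genes outside the described genes the share was 9.99%. There the counts were 10 of 31 lysosomal, 9 of 27 ER folding and 3 of 30 Golgi genes.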

How the data were processed

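Expression was measured on 4 rat arrays, 1 per group, from total RNA of cultured granulosa cells. The authors deposited linear microarray intensity values made with MAS5, per the submitters' processing notes. The sources used here do not give its version or settings. The 2% trimmed means lay between 500.1 and 500.2, so no scaling was added. Such scaling hides differences in total RNA per cell.

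Of 31099 probe sets, 57 were controls, 20826 of the others had exactly 1 symbol in the platform annotation, 436 several and 9780 none. The brightest of a gene's probe sets, by mean raw signal, gave 14217 genes. The floor, 100.5, was the median of the non-control signals. Signals below it were raised to it, and log2 was then taken.

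Genes were named by these rules: the 12 largest folds, the 6 brightest, those on lists, the 4 extremes of each comparison in each direction, those whose further probe set did not follow, and the 3 on either side of the limit. The other genes were named so that all 41 are accounted for, and genes of the added lists were chosen after their values were seen. The 41 genes and the lists were chosen with earlier results of these data known. No p-values were computed, since there was 1 array per group, and the number of arrays limits the precision. The code of the gene choice was run on simulated arrays in which bright genes were lowered 8-fold, more than any of the 41 genes at this floor. That run checks the code and says nothing of the choice in these data. Of the 41 genes, 2 had no match in the current gene table. Alternatives changed the floor, the fold limit, the probe set and the normalization (quantile, centring and loess with a span of 0.3). Python 3.11.15, pandas 2.3.3, numpy 2.4.6, statsmodels 0.14.6 and matplotlib 3.10.9 were used.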

Additional observations from a re-analysis of the deposited data

Results flagged for a closer look

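Poly-A spike transcripts, bacterial RNAs added before labelling, lie outside the gene measurement. Their geometric mean signal over 24 probe sets was 394.6 with GFP and FSH and 539.4 with the mutant, above the 21.4 on the GFP vehicle control and the 22.6 on FOXOA3 FSH. The part of this difference in the signals of the 41 genes was not tested.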

How the results depend on the processing

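The number of genes low on FOXOA3-mDBD FSH alone was 41. It was 175 with a 3-fold limit, 0 with an 8-fold limit, 130 with the floor at the 25th percentile, 22 with the floor doubled and 26 after loess. Quantile normalization and the mean of probe sets each gave 34, of which 32 and 31 were among the 41, and centring gave 28, all among the 41. FOXOA3-mDBD FSH remained the lowest array for all 41 under the floor and normalization settings, and for 38 with the mean of probe sets. The exceptions there were Pak1, Smad9 and Ttyh3, whose further probe sets were dim, so that the mean on the lowest other array lay at the floor. Of 246 ratios of single genes under 6 settings, 22 moved by more than 1.5-fold, 12 with the floor doubled and 10 with the mean of probe sets, and 0 reversed. The choice of the genes at a 4-fold limit largely fixed the lowest array and the lack of reversals in advance. Neither count is support for the low signals. Further probe sets with FOXOA3-mDBD FSH lowest numbered 11 of 11, and 6 of 6 with the floor doubled, which leaves fewer to read. These counts carry the filter on the other arrays. With the floor at the 25th percentile they numbered 13 of 15, so that 2 probe sets that became readable had another array lowest. Counts on lists were lowest after centring for ER folding (9 in place of 14), lysosomal (11 in place of 15) and antioxidant genes (4 in place of 6), and the SMAD count was 0 in place of 1 with the mean of probe sets. The medians of the 3 other comparisons moved by less than 1.5-fold. No paired analysis was possible because each group has 1 array. With 1 array per group the spread between cultures is unknown, and signals near the floor are bounds.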

Other observations

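Of 39 genes with a chromosome in the current gene table, 8 were on chromosome 10 (20.5%) and 6 on chromosome 7 (15.4%), where 8.42% and 5.97% of the eligible genes lie. These chromosomes were picked because they held the most of the genes, followed by chromosome 1 with 5. No share was computed for the others, so the figures say nothing of clustering. The genes on chromosome 10 with a promoter sequence were Atox1, Gaa, Grn, Hba-a3, Pdlim4 and Plscr3, which fall into 3 of the role groups.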
